A study of Mus musculus with 16 samples.

Results

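Polycomb complexes were followed through the RNA of 10 of their subunits in mouse embryonic stem cells (ESCs) that had lost Dnmt1, or both Dicer1 and Dnmt1. The subunits were chosen by name: the PRC2 core genes Ezh1, Ezh2, Eed and Suz12, the PRC2 accessory genes Jarid2 and Mtf2, the PRC1 core genes Rnf2 and Ring1, the variant PRC1 gene Rybp and the canonical PRC1 gene Cbx7. All 10 had a row among the 26127 genes of the table, and all 10 were among the 12892 genes tested. Levels are in RPM, the reads of a gene divided by the library's reads in M, and a gene was tested when it exceeded 1 RPM in at least 4 libraries.

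Polycomb complexes keep developmental genes silent in cells that do not need them. PRC2 methylates histone H3 at the promoters of such genes through one of a pair of related enzymes, Ezh1 and Ezh2, which need Eed and Suz12 to work. PRC1 attaches ubiquitin to histone H2A through Rnf2 (also called Ring1B) or its paralog Ring1. In ESCs both marks lie mostly on CpG-rich promoters of lineage regulators, DNA that usually carries little methylation.

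The 16 libraries of total RNA depleted of ribosomal RNA fell into 3 groups. The 8 wildtype (WT) libraries were labelled as controls for both genes, the 4 Dnmt1 KO libraries as Dnmt1-/- with a Dicer control, and the 4 Dicer/Dnmt1 KO libraries as Dicer/Dnmt1 -/-. Dnmt1 copies DNA methylation onto new strands when cells divide, and Dicer1 cuts microRNAs (miRNAs) and other small RNAs out of longer precursors. Per the methods, the lines descended from ESCs with loxP sites in both Dnmt1 alleles, and Cre was switched on by tamoxifen. Dicer was edited with CRISPR/Cas9 and colonies were grown from single cells. Both a line with loxP sites in Dicer and a line with Dicer deleted outright are listed there. Which of them gave the Dicer/Dnmt1 KO libraries is not said in the labels. The methods place the parent line in C57BL/6 whereas the labels say E14, so the strain is uncertain, and neither gives the day after induction for a library. Cells were grown in serum and LIF, with or without feeder cells. Each library has a number and a letter (1A, 1B and so on). Nothing says whether libraries came from separate cultures, so the p-values measure only the spread between these libraries. Over the tested genes, A and B of a number were mostly closer than libraries of different numbers. The SD of their log2 difference was 0.247 to 0.261 beside 0.329 to 0.358 in Dnmt1 KO. It was 0.235 to 0.243 beside 0.304 to 0.353 in Dicer/Dnmt1 KO, and 0.251 to 0.359 beside 0.331 to 0.75 in WT. Counting A and B as separate libraries can therefore make p-values too small.

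The libraries held 31.46 to 52.54 M reads. Dnmt1 stood at 7.40 to 7.66 log2 RPM in 6 WT libraries, at 5.69 in WT 4A and at 5.55 in WT 4B, beside 4.17 to 4.64 in all 8 knockout libraries. WT 4A and 4B thus stood apart from the other WT libraries, and changes without them are given where they matter. Dicer1 ran from 4.56 to 5.68 in WT, from 5.28 to 5.68 in Dnmt1 KO and from 3.68 to 4.06 in Dicer/Dnmt1 KO. Its lowest WT libraries were again 4B (4.56) and 4A (4.78), and the next was 3A (5.15). The 10 ESC markers, such as Pou5f1 and Nanog, were expressed in every group, with a summed level of 1757 to 2563 RPM in WT, 1531 to 1972 RPM in Dnmt1 KO and 1750 to 1835 RPM in Dicer/Dnmt1 KO, and 3 of them (Sox2, Nanog and Klf4) were called lower in Dnmt1 KO than in WT. In Dicer/Dnmt1 KO against WT, Sall4 was called higher and Tdgf1 and Utf1 lower. Markers of feeder fibroblasts, 10 in all, summed to 37.2 to 64.3 RPM in WT, 88.5 to 105 RPM in Dnmt1 KO and 80 to 139 RPM in Dicer/Dnmt1 KO. Of these markers 7 were tested. Against WT, Col1a1, Col1a2, Col3a1 and S100a4 were called higher in either knockout and Postn in Dicer/Dnmt1 KO, while Lum, Dcn and Twist2 were under 1 RPM in all libraries. Their part in the results was not tested.

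Levels can be compared between subunits only per length, so RPM was divided by the kilobases of a gene's merged exons. For Rnf2 and Rybp this length equals that of the longest coding transcript. It is longer for others, such as Ezh2 (6197 beside 2652 bases) and Jarid2 (9715 beside 5997). The order therefore depends on the length used, and the order per transcript was not tested. In WT, Eed had the highest level, 40.4 ± 6.97 RPM per kb (SD, n = 8), followed by Mtf2 with 34.0 ± 5.98, Suz12 with 25.7 ± 4.04 and Rnf2 with 24.1 ± 3.09. Rybp (16.5 ± 3.61), Cbx7 (16.4 ± 2.28) and Jarid2 (13.7 ± 1.85) came next. The libraries of neighbours in this order overlapped from Eed down to Jarid2, so that part of the order is not firm. Below them, by merged exons, the remaining subunits separated without overlap: Ezh2 at 7.59 ± 1.18, Ezh1 at 3.02 ± 0.33 and Ring1 at 1.12 ± 0.127 RPM per kb. Of each pair of paralogs the ESCs therefore had more RNA of one, Ezh2 and Rnf2.

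The upper part of the order, again by merged exons, differed in the knockouts. In Dicer/Dnmt1 KO Suz12 led with 38.4 ± 2.65 RPM per kb (n = 4), above Mtf2 (29.5 ± 4.34) in every library, and Eed had 25.3 ± 3.09. The level of Jarid2 was 24.3 ± 3.06 where Dnmt1 alone was lost, while Dicer/Dnmt1 KO had 20.6 ± 0.569. By this length the lower end was alike in all 3 groups, with Ezh2, Ezh1 and Ring1 in that order and no overlap between neighbours.

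**Figure D1:**
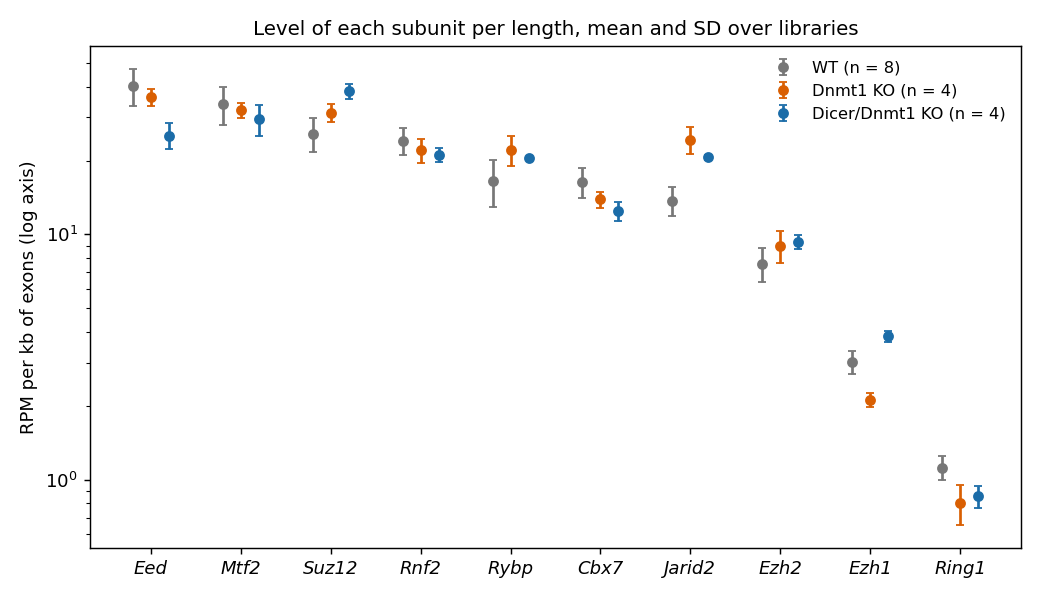
RPM per kb of merged exons (log axis) for the 10 subunits in WT (8 libraries), Dnmt1 KO (4) and Dicer/Dnmt1 KO (4), points being means and bars SDs, sorted by the WT mean. Eed to Jarid2 lie between 13.7 and 40.4 RPM per kb in WT, and Ezh2, Ezh1 and Ring1 lie below them in all groups.

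Changes were tested with limma over all 12892 genes, and a gene was called where the Benjamini-Hochberg adjusted p was under 0.05. In Dnmt1 KO against WT, Jarid2, Rybp and Suz12 were higher and Ezh1 and Ring1 lower, so 3 of 10 rose, beside 23.5% of all tested genes, and 2 of 10 fell, beside 17.5%. In Dicer/Dnmt1 KO against WT, 5 of 10 rose (Jarid2, Suz12, Ezh1, Rybp and Ezh2), beside 31.9% of all tested genes, and 3 of 10 fell (Eed, Ring1 and Cbx7), beside 30.1%. Between the knockouts, Dicer/Dnmt1 KO had more Ezh1 and less Eed than Dnmt1 KO, that is 1 of 10 higher, beside 16.9%, and 1 of 10 lower, beside 19.4%. These shares are near the background, so the counts say nothing particular about Polycomb genes. The median change of the 10 was -0.10, 0.06 and -0.08 on the log2 scale in the 3 comparisons, beside 0.04, 0.02 and -0.01 for all tested genes. Both comparisons with WT use the same 8 WT libraries. In a culture, fewer cells of a kind and less RNA per cell cannot be told apart.

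The balance of the calls depended on the scaling. With the median of each library set equal, the calls against WT were 2 up and 3 down for Dnmt1 KO, and 3 up and 4 down for Dicer/Dnmt1 KO. Without WT 4A and 4B the counts of subunits called were 5, 6 and 3 in place of 5, 8 and 2. Suz12 in Dnmt1 KO, and Ezh2 and Rybp in Dicer/Dnmt1 KO, were then no longer called, Cbx7 was called lower in Dnmt1 KO, and Suz12 was called higher in Dicer/Dnmt1 KO than in Dnmt1 KO. With quantile normalization 46.3% of all calls in Dnmt1 KO against WT were higher, in place of 57.3%, and no called change of a subunit turned its sign.

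**Figure D2:**
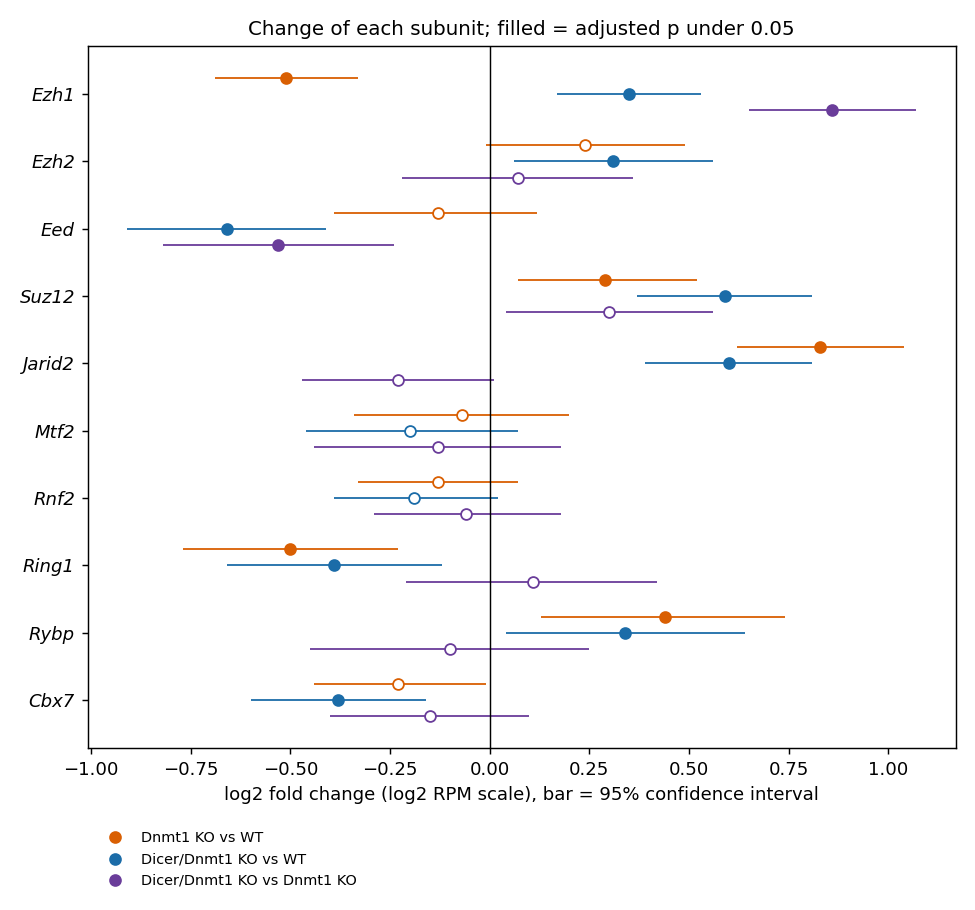
Log2 fold change on the log2 RPM scale (x axis) of each subunit (y axis) in the 3 comparisons, with 95% confidence intervals from limma as bars and filled points for adjusted p under 0.05. Ezh1 lies at -0.51 in Dnmt1 KO against WT and at 0.35 in Dicer/Dnmt1 KO against WT, and Jarid2 lies furthest right of the changes against WT.

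**Figure D3:**
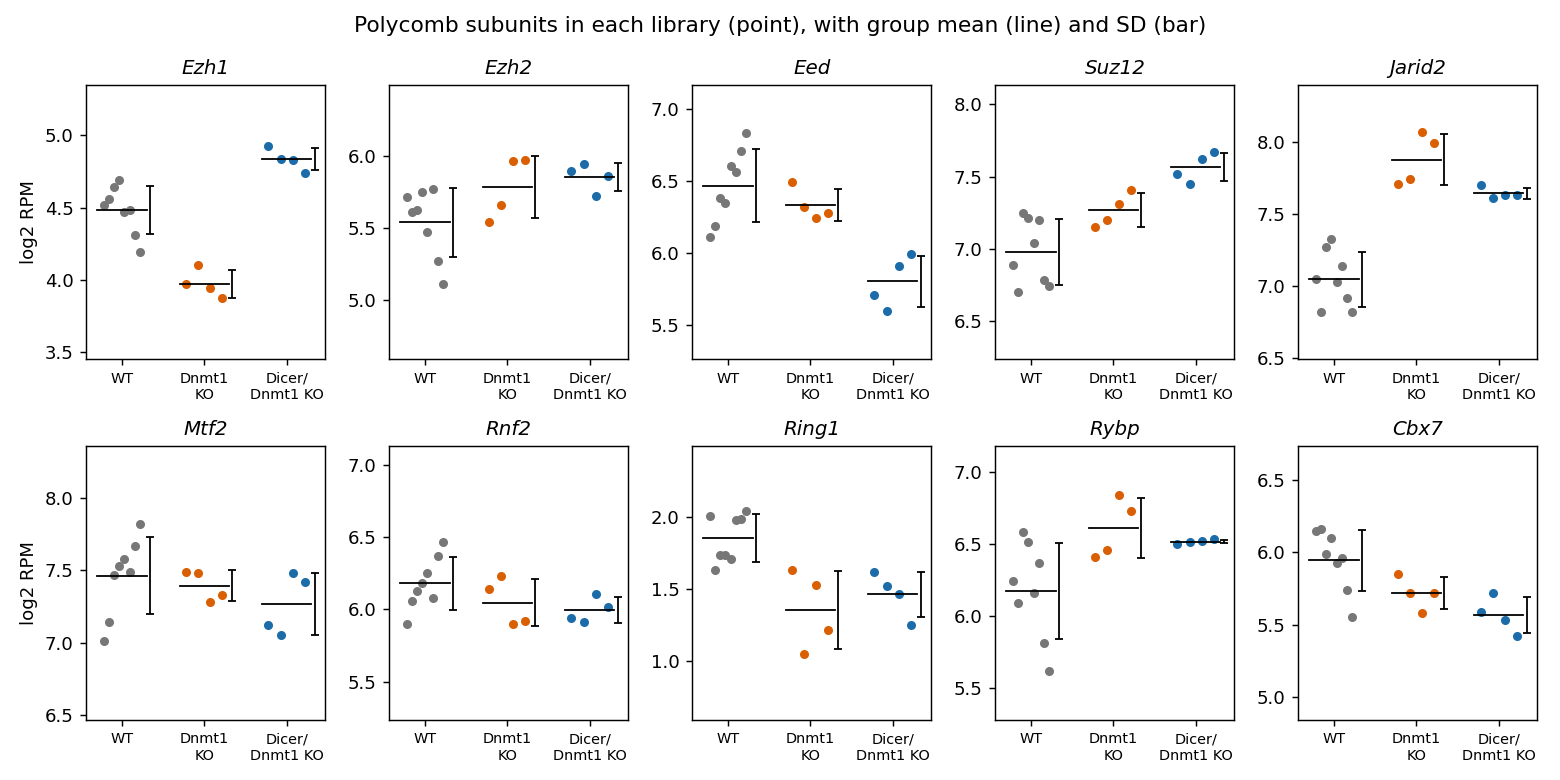
Log2 RPM (y axis, each panel spanning the same range of log2 units) of each subunit in every library, with the group mean as a line and the SD as a bar beside it. The 3 groups do not overlap for Ezh1, and both knockouts lie above WT for Jarid2.

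Ezh1, the PRC2 methyltransferase with the weaker activity that is best known from cells that do not divide, was the subunit whose group means spread most. The gene lies on the minus strand at chr11:101052429-101087777 (NCBIM37, as for all genes), and its longest coding transcript, by which exons are counted, has 21. In WT its level ran from 4.19 through a median of 4.50 to 4.69 log2 RPM. The Dnmt1 KO libraries 1A, 1B, 2A and 2B held 3.97, 4.10, 3.94 and 3.87, and the Dicer/Dnmt1 KO libraries 4.93, 4.84, 4.83 and 4.74. Every Dnmt1 KO library was thus below every WT library, and every Dicer/Dnmt1 KO library above every WT library.

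The difference of Dnmt1 KO from WT was -0.51 ± 0.09 (log2 fold change ± SE, adjusted p = 0.000155), or 0.7 times the WT level. Dicer/Dnmt1 KO differed from WT by 0.35 ± 0.09 (adjusted p = 0.00183) and from Dnmt1 KO by 0.86 ± 0.10 (adjusted p = 6.32e-06), or 1.82-fold. Without WT 4A and 4B the changes against WT were -0.59 and 0.28, both still called. With A and B of a number averaged into 1 value, the rise over WT missed the threshold (adjusted p = 0.0598).

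The 3′ UTR of Ezh1, 1824 bases in the longest coding transcript, holds letters that pair with seeds of abundant ESC miRNAs, the RNAs that Dicer1 makes. A seed, bases 2 to 8 of a miRNA, is the part that chiefly finds a target. miR-294-3p stands here for the miR-290 and miR-302 families, sharing its seed with miR-291a-3p, miR-295-3p, miR-302b-3p and miR-302d-3p. miR-17-5p stands for 6 further miRNAs with its seed, such as miR-20a-5p, miR-93-5p and miR-106b-5p. Sequences are from RefSeq (GRCm38.p6), with the seed in capitals:
mmu-miR-294-3p: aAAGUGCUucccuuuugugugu
mmu-miR-17-5p: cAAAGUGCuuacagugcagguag

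The sense strand of the 3′ UTR was searched for the reverse complements of the seeds, AGCACTT and GCACTTT, which overlap each other by 6 letters. Ezh1 had 1 match to miR-294-3p, at chr11:101053325-101053331, and 2 to miR-17-5p, at chr11:101053324-101053330 and chr11:101052478-101052484 (NCBIM37, minus strand). The first 2 matches are the same place shifted by 1 base. They are shown from GENCODE M1 with the match in capitals, because Ezh1 is the subunit that differed most between the knockouts:
Ezh1, miR-294-3p match: atagagaacaaAGCACTTtaactctcttt
Ezh1, miR-17-5p match, first: tagagaacaaaGCACTTTaactctctttt
Ezh1, miR-17-5p match, second: gtaaatttcttGCACTTTaaagtcctgtg

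The seeds were chosen after the values had been seen. Of the 10 subunits, Ezh1 alone had a match to miR-294-3p, which was present in 16.1% of the 12330 tested genes with a 3′ UTR and in 21.0% of the 2099 with a 3′ UTR of 0.8 to 1.25 times that length. For miR-17-5p these shares were 13.8% and 17.5%, and Rnf2 and Rybp also had 1 match each, with differences of -0.06 and -0.10 between the knockouts that were not called. Over all tested genes, medians of the log2 difference of Dicer/Dnmt1 KO from Dnmt1 KO were also taken. The median was 0.18 for the 1984 genes with a match to miR-294-3p and -0.04 for the 10346 without one. For miR-17-5p these were 0.21 and -0.04. For miR-26a-5p, miR-101a-3p and let-7a-5p, searched for Ezh2 below, they were 0.07, 0.05 and 0.06 with a match and -0.02 without. The medians were not matched for 3′ UTR length, and a cause was not tested. A match is a description of letters. Neither binding nor decay of the transcript was analysed here.

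Ezh2, the main H3K27 methyltransferase of dividing cells, varied less between groups. It lies at chr6:47480273-47545340 (minus strand), with 20 exons. Its level ran from 5.11 through 5.62 to 5.77 log2 RPM in WT. In Dnmt1 KO the libraries held 5.54, 5.66, 5.96 and 5.97, and the Dicer/Dnmt1 KO libraries 5.89, 5.94, 5.72 and 5.86. Both knockout groups overlapped with WT, whose 2 lowest libraries were 4A and 4B. The difference of Dicer/Dnmt1 KO from WT was 0.31 ± 0.12 (adjusted p = 0.0299), but without WT 4A and 4B it was 0.20 (adjusted p = 0.0646). This call held in 18 of 27 alternatives and was also lost with A and B averaged (adjusted p = 0.158). The difference of Dnmt1 KO from WT, 0.24 ± 0.12, was not called (adjusted p = 0.113), and its 95% interval ran from -0.01 to 0.49.

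The short 3′ UTR of Ezh2, 267 bases, held 2 matches to the seed of miR-101a-3p (GTACTGT), 1 to miR-26a-5p (TACTTGA) and 1 to let-7a-5p (CTACCTC). These miRNAs were searched because they are well known in connection with Ezh2, and the share of tested genes with a 3′ UTR of similar length that held a match was 2.4%, 2.4% and 2.6%. The matches to miR-101a-3p lie at chr6:47480475-47480481 and chr6:47480420-47480426 (NCBIM37, minus strand) and are shown with the miRNA as the subunit with the densest matches:
mmu-miR-101a-3p: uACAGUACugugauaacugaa
Ezh2, first match: aggaaccttgaGTACTGTgggcaatttag
Ezh2, second match: gaatttgcaaaGTACTGTaacagtaattt

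Between the knockouts Ezh2 differed by 0.07 on the log2 RPM scale (95% interval -0.22 to 0.36).

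Eed, the subunit that binds trimethylated H3K27 and so lets PRC2 spread the mark, was the member of PRC2's core that fell in Dicer/Dnmt1 KO. The gene, with 12 exons, lies at chr7:97103166-97129493 (minus strand). Its WT libraries ran from 6.11 through 6.47 to 6.83 log2 RPM. The Dnmt1 KO libraries held 6.49, 6.32, 6.24 and 6.28, inside the WT range, and the Dicer/Dnmt1 KO libraries 5.71, 5.60, 5.91 and 5.99, below every other library. Dicer/Dnmt1 KO differed from WT by -0.66 ± 0.12 (adjusted p = 0.000134), or 0.63 times the WT level, and from Dnmt1 KO by -0.53 ± 0.14 (adjusted p = 0.00647). The first call held without WT 4A and 4B (-0.56), and the second missed the threshold when A and B were averaged (adjusted p = 0.122). Dnmt1 KO differed from WT by -0.13, an interval of -0.39 to 0.12. Eed had 1 match to the miR-101a-3p seed in its 281-base 3′ UTR.

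Suz12, which holds the PRC2 core together, was called higher in both knockouts, although in Dnmt1 KO not under all alternatives. The gene, with 16 exons, lies at chr11:79806608-79847625 (plus strand). WT libraries ran from 6.70 through 6.97 to 7.25 log2 RPM. In Dnmt1 KO they held 7.15, 7.20, 7.31 and 7.41, and in Dicer/Dnmt1 KO 7.52, 7.45, 7.62 and 7.67. The Dicer/Dnmt1 KO libraries exceeded all others, whereas Dnmt1 KO overlapped with WT. The rise over WT was 0.59 ± 0.11 in Dicer/Dnmt1 KO (adjusted p = 0.000139), or 1.51-fold, and 0.29 ± 0.11 in Dnmt1 KO (adjusted p = 0.0356). The latter call held in only 15 of 27 alternatives. It was lost, among others, without WT 4A and 4B (0.22, adjusted p = 0.0761) and with A and B averaged (adjusted p = 0.237). Leaving out the library Dnmt1 KO 2B also lost it (0.24, adjusted p = 0.126). The difference between the knockouts, 0.30 ± 0.12, missed the threshold (adjusted p = 0.0671), although the 2 groups did not overlap.

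Within PRC2 the RNAs of the 4 core subunits thus did not change together in Dicer/Dnmt1 KO: Suz12, Ezh1 and Ezh2 were called higher than in WT and Eed lower. The calls of Suz12 and Eed held in all 27 alternatives, that of Ezh1 in 26 and that of Ezh2 in only 18.

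Jarid2, a DNA-binding accessory subunit that helps bring PRC2 to its targets, had the largest change of the 10 against WT. The gene spans chr13:44824843-45017012 (plus strand), with 18 exons. In WT it ran from 6.82 through 7.04 to 7.33 log2 RPM. Its values in Dnmt1 KO were 7.71, 7.74, 8.07 and 7.99, and the Dicer/Dnmt1 KO libraries 7.70, 7.61, 7.63 and 7.63. All 8 knockout libraries were above all 8 WT libraries. The rise was 0.83 ± 0.10 in Dnmt1 KO (adjusted p = 4.48e-06), or 1.78-fold, and 0.60 ± 0.10 in Dicer/Dnmt1 KO (adjusted p = 6.33e-05), or 1.51-fold. Both were called under each of the 27 alternatives, with adjusted p up to 0.00587 and 0.0123. Their size ran from 0.71 to 0.90 in Dnmt1 KO and from 0.27 to 0.76 in Dicer/Dnmt1 KO. Dicer/Dnmt1 KO was lower than Dnmt1 KO in all 4 libraries, but the difference of -0.23 ± 0.11 was not called (adjusted p = 0.125). It was called with a replicate block (adjusted p = 0.0478) and with only the 2 groups (adjusted p = 0.0408). With the trend with gene length removed it was called at -0.44 (adjusted p = 0.00128).

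Mtf2, a Polycomb-like accessory subunit that binds CpG-rich DNA, gave no call. It lies at chr5:108494693-108538023 (plus strand), with 15 exons. Its level ran from 7.01 through 7.51 to 7.82 log2 RPM in WT, from 7.28 to 7.49 in Dnmt1 KO and from 7.05 to 7.48 in Dicer/Dnmt1 KO. The difference from WT was -0.07 (95% interval -0.34 to 0.20) in Dnmt1 KO and -0.20 (-0.46 to 0.07) in Dicer/Dnmt1 KO. The end of Mtf2 overlaps Tmed5 on the other strand, which had up to 995 reads in a library, beside at least 4066 for Mtf2, and the strand setting of the counting is not given in the sources used here.

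The promoters of Jarid2 and Ezh1 are shown because these subunits had the largest changes of the 10 in Dnmt1 KO against WT, and the CpG is the substrate of Dnmt1. Methylation was not among the data analysed here. The windows run from 250 bases before to 50 after a gene start in RefSeq (GRCm38.p6), with each CG in capitals, the first of the 2 windows for Jarid2 at chr13:44730524-44730823 (plus strand) and that of Ezh1 at chr11:101226414-101226713 (minus strand):
Jarid2 promoter: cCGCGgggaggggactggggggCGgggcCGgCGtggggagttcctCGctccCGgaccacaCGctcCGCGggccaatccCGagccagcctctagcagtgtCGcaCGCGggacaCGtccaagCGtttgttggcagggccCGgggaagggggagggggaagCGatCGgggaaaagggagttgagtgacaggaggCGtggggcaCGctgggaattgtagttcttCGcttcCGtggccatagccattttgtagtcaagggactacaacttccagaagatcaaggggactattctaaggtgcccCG
Ezh1 promoter: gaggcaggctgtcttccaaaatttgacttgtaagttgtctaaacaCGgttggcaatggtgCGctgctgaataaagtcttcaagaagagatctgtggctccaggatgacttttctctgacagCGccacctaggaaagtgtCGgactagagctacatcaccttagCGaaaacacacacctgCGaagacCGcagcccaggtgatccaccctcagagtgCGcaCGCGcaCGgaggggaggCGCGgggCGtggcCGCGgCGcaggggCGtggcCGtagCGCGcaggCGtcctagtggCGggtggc

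Jarid2 had 24 CG in this window and 23 in the other, and Ezh1 had 23, beside a median of 7 over the 32851 promoters of that table. At least as many as 23 were found in 21.5% of these promoters. RefSeq windows were found for 9 of the 10 subunits, all but Rybp, and the main window of each was CpG-rich: 17 in Eed, 30 in Mtf2, 30 in Rnf2, 31 in Ezh2, 33 in Cbx7, 37 in Ring1 and 41 in Suz12, with 2 in the second window of Mtf2. The CG is the same on both strands.

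Rnf2, the main ubiquitin ligase of PRC1 in ESCs, gave no call. It lies at chr1:153316536-153347953 (minus strand), with 7 exons. It ran from 5.90 through 6.15 to 6.47 log2 RPM in WT, from 5.90 to 6.23 in Dnmt1 KO and from 5.91 to 6.11 in Dicer/Dnmt1 KO. The difference from WT was -0.13 (95% interval -0.33 to 0.07) in Dnmt1 KO and -0.19 (-0.39 to 0.02) in Dicer/Dnmt1 KO.

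Ring1, its paralog, had the lowest level of the subunits and was called lower in both knockouts, although not under all alternatives. The gene lies at chr17:34157737-34161625 (minus strand), and 7 exons make up its longest coding transcript. WT libraries ran from 1.63 through 1.86 to 2.04 log2 RPM. The Dnmt1 KO libraries held 1.63, 1.05, 1.53 and 1.22, and the Dicer/Dnmt1 KO libraries 1.62, 1.52, 1.47 and 1.25. In reads this was 114 to 185 per WT library and 75 to 114 per knockout library. All 8 were at or below 1.63, the lowest WT value to 2 decimals. The change was -0.50 ± 0.13 in Dnmt1 KO (adjusted p = 0.00505) and -0.39 ± 0.13 in Dicer/Dnmt1 KO (adjusted p = 0.0144), or 0.71 and 0.76 times the WT level. With A and B averaged neither was called (adjusted p = 0.0549 and 0.0729). The second also missed the threshold without the library Dicer/Dnmt1 KO 2B (-0.32, adjusted p = 0.0621), with a replicate block (adjusted p = 0.0659), with only WT numbers 1 and 2 (adjusted p = 0.104) and with the trend with gene length removed (adjusted p = 0.0669).

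Rybp, which takes the place of a Cbx protein in variant PRC1, rose in both knockouts, with groups that overlapped WT. It lies at chr6:100178560-100237435 (minus strand), with 5 exons, and ran from 5.62 through 6.20 to 6.58 log2 RPM in WT. The Dnmt1 KO libraries held 6.41, 6.46, 6.84 and 6.73, and the Dicer/Dnmt1 KO libraries lay between 6.50 and 6.53. The 2 lowest WT libraries were 4A and 4B. The rise was 0.44 ± 0.14 in Dnmt1 KO (adjusted p = 0.0216) and 0.34 ± 0.14 in Dicer/Dnmt1 KO (adjusted p = 0.0485). Without WT 4A and 4B it was 0.29 (adjusted p = 0.0256) and 0.19 (adjusted p = 0.108). The first was also lost without Dnmt1 KO 2A (0.36, adjusted p = 0.0934) or 2B (0.40, adjusted p = 0.071), and the second held in only 8 of 27 alternatives.

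Cbx7, the main Cbx protein of ESCs, by which canonical PRC1 reads the PRC2 mark, was lower in Dicer/Dnmt1 KO. The gene, with 6 exons, lies at chr15:79746237-79801549 (minus strand). WT libraries ran from 5.55 through 5.97 to 6.16 log2 RPM. Dnmt1 KO had 5.85, 5.72, 5.58 and 5.72, and Dicer/Dnmt1 KO 5.59, 5.72, 5.53 and 5.42. All 8 lay below 6 of the 8 WT libraries, and WT 4A (5.74) and 4B (5.55) lay among them. The change was -0.38 ± 0.10 in Dicer/Dnmt1 KO (adjusted p = 0.0041) and -0.23 ± 0.10 in Dnmt1 KO, which was not called (adjusted p = 0.0872). Without WT 4A and 4B both were called, at -0.48 and -0.33 (adjusted p = 3.34e-05 and 0.00184). The call in Dicer/Dnmt1 KO was lost with A and B averaged (adjusted p = 0.0694) and with only WT numbers 3 and 4 (-0.23, adjusted p = 0.0512).

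The 2 paralog pairs were compared within each library, since Ezh1 can stand in for Ezh2 and Ring1 for Rnf2. Ezh1 minus Ezh2 was -1.06 ± 0.12 in WT (log2 RPM, mean ± SD, n = 8) and -1.81 ± 0.29 in Dnmt1 KO (n = 4), while Dicer/Dnmt1 KO had -1.01 ± 0.11 (n = 4). The Dnmt1 KO libraries held -1.56, -1.55, -2.02 and -2.09, all below the lowest WT library (-1.28). The difference of Dnmt1 KO from WT was -0.75 (two-sided exact permutation test, p = 0.00404, the smallest that 4 against 8 libraries allow, and 0.0242 after adjustment over 6 results). Dicer/Dnmt1 KO differed from WT by 0.04 (exact p = 0.614) and from Dnmt1 KO by 0.79, where the exact p of 0.0286 is the smallest that 4 against 4 allow and was 0.0857 after adjustment. These tests take A and B of a number as separate libraries. With A and B averaged the difference of Dnmt1 KO from WT, -0.75, missed the threshold (adjusted exact p = 0.4), where 0.133 is the smallest p before adjustment that 2 against 4 allow. Relative to Ezh2, Ezh1 was thus lower in all 4 Dnmt1 KO libraries than in any WT library.

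Ring1 minus Rnf2 was -4.33 ± 0.22 in WT and -4.69 ± 0.36 in Dnmt1 KO, while Dicer/Dnmt1 KO had -4.53 ± 0.21. The differences from WT, -0.37 and -0.20, were not past the threshold (exact permutation test, p = 0.0525 and 0.154, adjusted p = 0.105 and 0.23), and neither was that between the knockouts (0.16, exact p = 0.514).

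**Figure D4:**
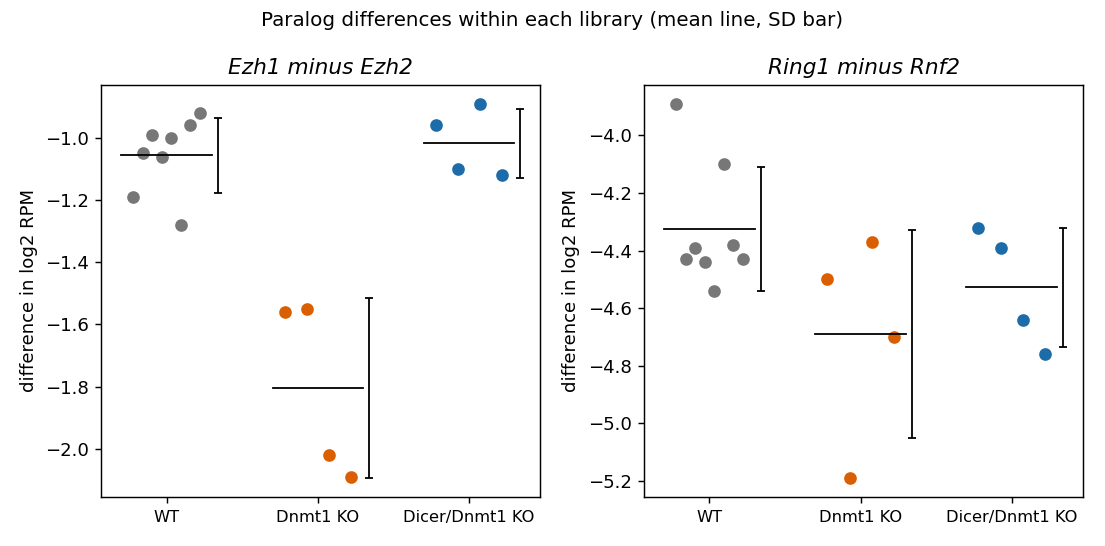
Ezh1 minus Ezh2 (left) and Ring1 minus Rnf2 (right) in log2 RPM for each library, with the group mean as a line and the SD as a bar. The 4 Dnmt1 KO libraries lie below all WT and Dicer/Dnmt1 KO libraries for Ezh1 minus Ezh2, and the groups overlap for Ring1 minus Rnf2.

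A further 33 genes of Polycomb complexes, 7 of PRC2 and 26 of PRC1, were read from the same fit. Cbx8 did not pass the filter, reaching 0.11 log2 RPM at most, which left 32. In Dnmt1 KO against WT, 11 were higher and 1 lower (Pcgf1), with a median of 0.22. In Dicer/Dnmt1 KO against WT, 19 were higher and 5 lower (Rbbp4, Rbbp7, Pcgf1, Pcgf6 and E2f6), with a median of 0.46. Between the knockouts, 7 were higher and 6 lower in Dicer/Dnmt1 KO, with a median of 0.15. Of all tested genes 23.5%, 31.9% and 16.9% were called higher in the 3 comparisons and 17.5%, 30.1% and 19.4% lower, with medians of 0.04, 0.02 and -0.01. With the trend with gene length removed, 10, 16 and 6 were higher and 3, 8 and 7 lower. Without WT 4A and 4B, 11, 24 and 17 of the 32 were called in the 3 comparisons.

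Bmi1, also called Pcgf4, a partner of the Ring ligases in canonical PRC1, was the gene with the largest rise of those that met the conditions for naming. It stood at 1.45 ± 0.30 log2 RPM in WT (n = 8), at 2.95 ± 0.07 in Dnmt1 KO and at 3.57 ± 0.24 in Dicer/Dnmt1 KO (n = 4 each). The 3 groups did not overlap, and the changes were 1.49 ± 0.15 in Dnmt1 KO (adjusted p = 4.44e-07) and 2.12 ± 0.15 in Dicer/Dnmt1 KO (adjusted p = 2.56e-09). Pcgf1, the partner in the variant complex with Kdm2b and Bcor, went the other way, from 2.39 ± 0.18 in WT to 1.62 ± 0.26 and 1.11 ± 0.35, changes of -0.77 (adjusted p = 0.000531) and -1.28 (adjusted p = 1.36e-06). Of its own complex, Kdm2b, which binds unmethylated CpG DNA, was 0.53 higher in Dnmt1 KO (adjusted p = 0.000852) and 0.31 higher in Dicer/Dnmt1 KO (adjusted p = 0.019). Bcor, a scaffold, was 0.70 higher in Dnmt1 KO (adjusted p = 0.0138) and 1.47 higher in Dicer/Dnmt1 KO (adjusted p = 1.55e-05). The smaller change of each came with groups that overlapped.

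Among the accessory genes of PRC2, E130012A19Rik (now called Epop) was highest in Dnmt1 KO, at 6.56 ± 0.13 log2 RPM beside 5.39 ± 0.10 in WT and 5.88 ± 0.16 in Dicer/Dnmt1 KO. It rose by 1.17 in Dnmt1 KO (adjusted p = 5.52e-09), and Dicer/Dnmt1 KO was below Dnmt1 KO by -0.69 (adjusted p = 2.74e-05). Lcor, whose locus also makes a PRC2 accessory protein, was higher in Dicer/Dnmt1 KO, at 4.84 ± 0.11 beside 3.29 ± 0.29 in WT and 3.49 ± 0.28 in Dnmt1 KO, a difference of 1.35 ± 0.17 between the knockouts (adjusted p = 1.26e-05). Phf19, a relative of Mtf2, stood at 1.71 ± 0.33, 2.35 ± 0.22 and 3.07 ± 0.08 in WT, Dnmt1 KO and Dicer/Dnmt1 KO, and differed by 0.72 ± 0.18 between the knockouts (adjusted p = 0.00471). In PRC1, Scml2, an X-linked gene of the Scm family, was 0.90 higher in Dnmt1 KO than in WT (adjusted p = 0.000335).

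Phc3, a polyhomeotic subunit of canonical PRC1, stood at 3.86 ± 0.32 log2 RPM in WT, at 4.16 ± 0.12 in Dnmt1 KO (not called, adjusted p = 0.0956) and at 5.41 ± 0.07 in Dicer/Dnmt1 KO. The difference between the knockouts was 1.26 ± 0.16 (adjusted p = 1.5e-05), or 2.39-fold. Its 3′ UTR of 7965 bases held 4 matches to miR-294-3p, while 58.7% of the 126 tested genes with a 3′ UTR of similar length held at least 1. Lcor and Bmi1, searched in the same way, held 0 matches to miR-294-3p and 0 to miR-17-5p. Both were also called higher in Dicer/Dnmt1 KO than in Dnmt1 KO, by 1.35 (adjusted p = 1.26e-05) and 0.63 (adjusted p = 0.00835). The first 2 matches in Phc3, at chr3:30803752-30803758 and chr3:30803069-30803075 (NCBIM37, minus strand), are shown to set beside the match in Ezh1:
Phc3, first match: tcttattactaAGCACTTaagaactttct
Phc3, second match: aatactctaaaAGCACTTcagacatgttc

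**Figure D5:**
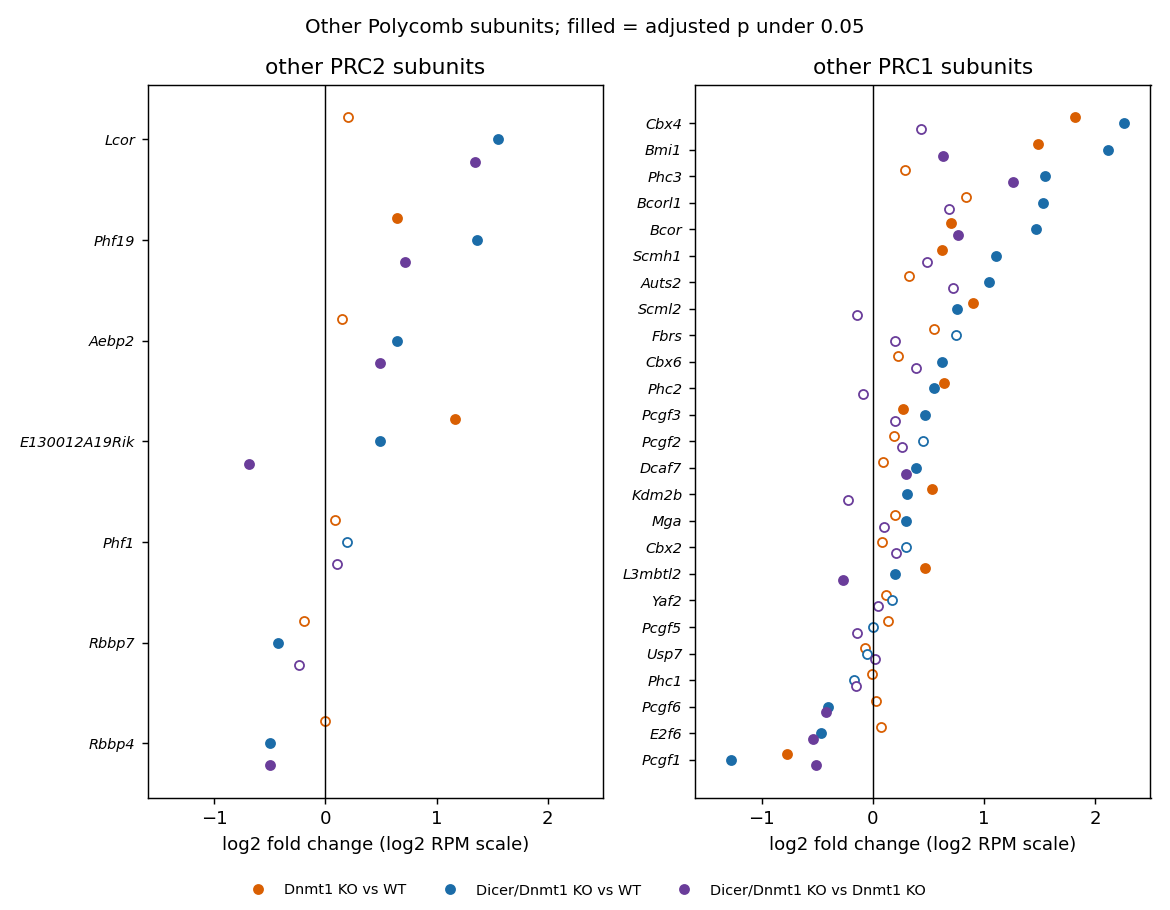
Log2 fold change on the log2 RPM scale (x axis) of the 7 other PRC2 genes (left) and 25 tested other PRC1 genes (right) in the 3 comparisons, sorted by the change of Dicer/Dnmt1 KO against WT, with filled points for adjusted p under 0.05. Most points lie right of 0 in Dicer/Dnmt1 KO against WT, Bmi1 at 2.12 among them, and Pcgf1 lies furthest left at -1.28.

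Genes that undo Polycomb marks were few. Of 6 tested, Asxl3 alone was called in Dnmt1 KO against WT (1.20 higher, adjusted p = 0.00297), beside 23.5% of all tested genes called higher and 17.5% lower. In Dicer/Dnmt1 KO 3 were higher, among them the H3K27 demethylase Kdm6b (1.06, adjusted p = 0.0233), and 1 was lower, beside 31.9% and 30.1%. With the trend with gene length removed, 1 was higher and 2 lower there. Kdm6b overlapped between the groups, at 1.10 to 3.95 log2 RPM in WT and 3.40 to 4.14 in Dicer/Dnmt1 KO. The other H3K27 demethylase of the list, Kdm6a, was not called (0.08, adjusted p = 0.355). Between the knockouts 1 was lower, beside 19.4%. Bap1, which removes the PRC1 ubiquitin from H2A, fell from 5.82 ± 0.11 log2 RPM in WT and 5.79 ± 0.07 in Dnmt1 KO to 5.37 ± 0.04 in Dicer/Dnmt1 KO, changes of -0.45 (adjusted p = 1.64e-05) and -0.42 (adjusted p = 0.000432). Of its 3 partners on the list, Asxl2 rose by 0.53 (adjusted p = 0.00692) and Asxl3 by 1.92 (adjusted p = 2.28e-05) over WT when Dicer was lost too, and Asxl1, at 0.39, was not called (adjusted p = 0.106).

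Genes that carry Polycomb marks in ESCs were read as a list of 27 developmental regulators, of which 26 had a row and 14 passed the filter. A gene can pass through 1 knockout group alone, and then has to differ, so the counts describe the 14 and no more. Cdx2 passed through Dnmt1 KO alone, at 0.01 to 0.48 log2 RPM. It reached at most -0.03 in WT and -0.96 in Dicer/Dnmt1 KO. Foxa2, Msx2 and Hand1 passed through knockout libraries alone. Against WT, 11 were higher in Dnmt1 KO and 2 lower (Pax6 and Olig2), and in Dicer/Dnmt1 KO 9 were higher and 1 lower (Olig2). Over all tested genes 23.5% were higher and 17.5% lower in the first comparison, and 31.9% and 30.1% in the second. Between the knockouts 3 were higher in Dicer/Dnmt1 KO, Pax6 and Olig2 among them, beside 16.9% of all tested genes. Gata4, Gata6, Sox7 and Cdx2 were lower, beside 19.4%. The direction of Cdx2 was set by its passing the filter through Dnmt1 KO alone. Cdkn2a, the cell cycle inhibitor locus, rose by 1.41 in Dnmt1 KO (adjusted p = 3.34e-05) and 1.31 in Dicer/Dnmt1 KO (adjusted p = 3.17e-05), and Wt1, a regulator of kidney and gonad, by 1.06 (adjusted p = 0.000231) and 0.94 (adjusted p = 0.000348). The endoderm regulators Gata6 and Gata4 were higher in Dnmt1 KO, by 2.14 (adjusted p = 6.03e-06) and 0.98 (adjusted p = 0.00171), and both were lower in Dicer/Dnmt1 KO than in Dnmt1 KO, by -1.29 (adjusted p = 0.00341) and -1.15 (adjusted p = 0.00193). The 12 that did not pass, such as Pax7 and Neurog2, stayed between -5.87 and 0.76 log2 RPM.

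The tested genes whose levels followed Ezh1 most closely over the 16 libraries were Rab5b, Sec14l1, Dpysl2, Zfp651 and Sfrp1, with Pearson's r from 0.953 to 0.961. Those that followed Jarid2 were Ppp3r1, Cstf3, Slc39a14, Ltn1 and Plk3, with r from 0.961 to 0.977. These are descriptions over libraries that share their groups.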

How the data were processed

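The authors trimmed reads with Trim Galore, aligned them with TopHat to the mouse build NCBIM37, dropped alignments of low mapping quality and deposited log2 RPM per gene from SeqMonk, per the methods. Undoing the log gave whole reads for 100% of the values of each library, with a gene without reads written as 0.9 read. The totals were 31.46 to 52.54 M reads, so that 3 reads, the limit that a count of 0 allows, were 0.0571 to 0.0954 RPM (counting error only). The 35 value columns of other samples were not used.

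limma 3.58.1 (R 4.3.3) fitted a mean per group to the log2 RPM of the 12892 genes above 1 RPM in at least 4 libraries, with a variance trend and Benjamini-Hochberg adjustment over all of them. The fit was tested on simulated data. The groups came from the labels. Coordinates, exons and 3′ UTRs came from GENCODE M1 (NCBIM37), where 26052 of 26113 matched genes had the table's coordinates. Paralog differences used exact permutation tests in scipy over libraries. Alternatives were averaging A and B, a replicate block, a pseudocount of 1 RPM, no filter, median centring, quantile normalization, only the 2 groups compared, subsets of WT, a correction for length, a minimum change of 1.5-fold and leaving out each library.

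The subunits and the gene lists were chosen with earlier results of these data known. Of the other lists, the text names by rule called genes with a mean of at least 2 RPM and groups that do not overlap, by size of change, the first 5 other subunits and the first 3 erasers and target genes in each comparison, beside the 5 genes most like each of the 2 subunits with the widest range of group means. A gene it names outside the rule was chosen after its values were seen. The values of 1 target gene that the rule names are not reported here.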

Additional observations from a re-analysis of the deposited data

Results flagged for a closer look

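Ezh1 moved in opposite directions in the knockouts: every Dnmt1 KO library lay below every WT library and every Dicer/Dnmt1 KO library above. The difference itself, Dicer/Dnmt1 KO against Dnmt1 KO, was 0.86 on the log2 scale (limma, adjusted p = 6.32e-06). A search for a library far from the others of its group, by Dixon's test on the 10 subunits and the 2 paralog differences in 3 groups, found 0 in 36.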

How the results depend on the processing

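Under the alternatives no call of a subunit turned its direction. Counts that moved by over 1.5 times were as follows. With A and B averaged, subunits called in Dnmt1 KO against WT, Dicer/Dnmt1 KO against WT and between the knockouts came to 2, 3 and 1 (from 5, 8 and 2), other Polycomb genes to 7 and 3 in the first and last (from 12 and 13), and erasers to 0, 2 and 0 (from 1, 4 and 1). With a minimum change of 1.5-fold, subunits came to 1, 3 and 1, other Polycomb genes to 13 and 6 in the last 2, and erasers to 2 and 0 in these. With WT numbers 3 and 4 only, 8 subunits, 21 other Polycomb genes and 3 erasers were called in Dnmt1 KO and 2 erasers between the knockouts. With WT numbers 1 and 2 only, 5 subunits were called in Dicer/Dnmt1 KO, 2 erasers in Dnmt1 KO and 4 between the knockouts. Without WT number 4 erasers came to 2 and 4 in the same comparisons, with the length trend removed to 2 in Dnmt1 KO, and with only the 2 groups 4 subunits and 4 erasers were called between the knockouts. The cause was not tested.

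With the replicate block, 5 subunits were called in Dicer/Dnmt1 KO against WT and 4 between the knockouts, as were 2 erasers in Dnmt1 KO against WT and 4 between the knockouts. The numbers are not known to pair libraries: deviations of libraries with the same label correlated from -0.256 to 0.336.

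Ezh1 minus Ezh2 in Dnmt1 KO against WT missed the threshold with A and B averaged (-0.75), with WT numbers 1 and 2 (-0.74), with WT numbers 3 and 4 (-0.77) and without WT number 4 (-0.71). With A and B averaged the smallest p those libraries allow was 0.133, and with 4 WT libraries 0.0286 before adjustment. Without WT number 4 it was 0.00952 before adjustment. Leaving out single libraries gave -0.84 to -0.66, with the threshold missed without any 1 of the Dnmt1 KO libraries (adjusted p = 0.0727). There 0.0121 is the smallest p before adjustment that 3 against 8 libraries allow, so these misses say little. Leaving out single libraries also gave 3 to 5 subunits in Dnmt1 KO (3 without 2A or 2B) and 5 to 10 in Dicer/Dnmt1 KO (5 without its 2B). Between the knockouts it gave 1 to 2 erasers (2 without WT 1A). Counts of whole reads limit Ring1 most, the weakest subunit.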
